A study of Mus musculus with 3 samples.

Results

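The centromere-proximal ends of the mouse autosomes were taken as all 10 kb bins at positions 3000000 to 7999999 of chromosomes 1 to 19, a window of 5 Mb on each chromosome. The 19 windows hold 9500 bins, of which 8727 carried at least 1 di-tag end in any library, out of 242198 bins with an end in the whole series. A di-tag is a pair of sequenced ends that were ligated to each other, and it was counted as trans where its ends lay on 2 different chromosomes. For each of the 171 chromosome pairs, the trans di-tags that joined the 2 windows were counted and set against the number that the trans coverage of the windows alone would give, and the ratio is written below as observed over expected (O/E). The rule for the bins uses their position alone.

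The libraries were made by Capture Hi-C (CHi-C), in which DNA of fixed nuclei is cut with HindIII, ligated, and enriched for ligation products that contain selected fragments. Samples 3, 4 and 5 are labelled as embryonic stem cells of strain C57BL/6, with no treatment and no other group, and the series was deposited to compare lists of di-tags with and without duplicate copies. For Sample 3 alone, the source label names foetal liver cells and so conflicts with the cell type label and with the study's description, and CHi-C data hold no marker gene level with which to check a cell type. The labels do not say that the libraries came from separate cultures, so the p-values over libraries measure only the spread between these 3 libraries, which may be technical.

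Mouse autosomes have their centromere at the end where the coordinates begin, and the assembly leaves the centromeric satellite repeats out, so that the first mapped sequence lies next to pericentromeric heterochromatin. In interphase nuclei the pericentromeric repeats of several chromosomes gather in dense bodies called chromocentres. The ribosomal RNA genes (rDNA) lie in arrays close to the centromeres of some chromosomes and are transcribed in the nucleolus, around which chromocentres often lie. Chromosomes 12, 15, 16, 18 and 19 were taken as the 5 carriers of rDNA and the other 14 autosomes as non-carriers, although the carriers differ between mouse strains and the arrays themselves are not in the lists used here.

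Sample 3 stood apart from Samples 4 and 5. With duplicates removed, the lists of Samples 3, 4 and 5 held 9376907, 8596799 and 8821161 di-tags, of which 52.0%, 67.4% and 71.6% were trans. Between 4571762 and 5994015 trans di-tags per library joined 2 autosomes. The windows took nearly equal shares of the autosomal ends, with 3.58% in Sample 3 and 3.65% in both others, and their own ends were trans in 56.4%, 69.1% and 72.5% of cases. The trans shares of the windows thus had the same order over libraries as the overall trans shares. The window shares lay above the overall shares in each library, by the most in Sample 3. These 2 shares are not alike, so the size of the gap is not a measure. The window share counts only ends joined to another autosome, and the overall share counts all trans di-tags, also those with X, Y or mitochondrial ends. Since Sample 3 is 1 library, its difference from the other libraries was not tested, and its values are given apart from theirs.

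The centromere-proximal windows of different chromosomes were joined more often than their coverage gave in all 3 libraries, by much the most in Sample 3. In Sample 3, 12892 trans di-tags joined 2 windows against 7326 expected, an O/E of 1.76 with an exact Poisson 95% interval from 1.73 to 1.79. In Sample 4 there were 8976 against 8018 (O/E 1.12, interval 1.10 to 1.14), and in Sample 5 there were 9291 against 8565 (O/E 1.08, interval 1.06 to 1.11). Each interval lay above 1, but the intervals cover counting error only and not the spread between libraries. The mean O/E was 1.32 ± 0.380 (SD, n = 3), and without Sample 3 it was 1.10. With 3 libraries an exact sign-flip test cannot give a p below 0.25, so none is given for these summed values.

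The excess over the expectation came to 5566 di-tags in Sample 3, 958 in Sample 4 and 726 in Sample 5, from lists of similar size. The excess was therefore also the largest in Sample 3 as a number of di-tags. A window-to-window di-tag was present in 6.95, 5.65 and 5.07 copies on average in the lists with duplicates, and a trans di-tag of any autosomal position in 6.95, 5.63 and 5.15 copies. What part duplicate copies had in the excess, and what part the lower trans share of Sample 3 or its conflicting source label had in its larger excess, was not tested.

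The excess was present for di-tags with and without a captured end. A bin was called captured here where it was among the 10% most covered bins in both other libraries, which held for 654 to 727 of the 9500 bins. For di-tags with no captured end, O/E was 1.53 in Sample 3, 1.08 in Sample 4 and 1.06 in Sample 5. It rose with the number of captured ends in each library, to 1.81, 1.12 and 1.08 with 1 captured end and to 2.18, 1.30 and 1.22 with 2. When the expectation was formed within these 3 classes, the summed O/E was 1.75, 1.12 and 1.08, so the excess was as large within classes.

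The contact of the windows with the rest of the other chromosomes fell with distance from the centromere in Sample 3. Each 5 Mb window was joined to successive 5 Mb tiles of all other chromosomes, and O/E in Sample 3 went from 1.76 at 0 to 5 Mb from the window start, through 1.58 at 5 to 10 Mb and 1.34 at 20 to 25 Mb, to 0.985 at 50 to 55 Mb and 0.698 at 115 to 120 Mb. In Sample 4 the same series began at 1.12 and its lowest tile was 0.959. In Sample 5 it began at 1.08 and its lowest tile was 0.970. The tiles lay on all 19 chromosomes up to 60 Mb and on fewer beyond, with 14 chromosomes from 105 to 120 Mb, so the set of chromosomes changed along the course. The course was steep in Sample 3 and shallow in the other libraries, with the first tile the highest of the 24 in each of them.

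**Figure D1:**
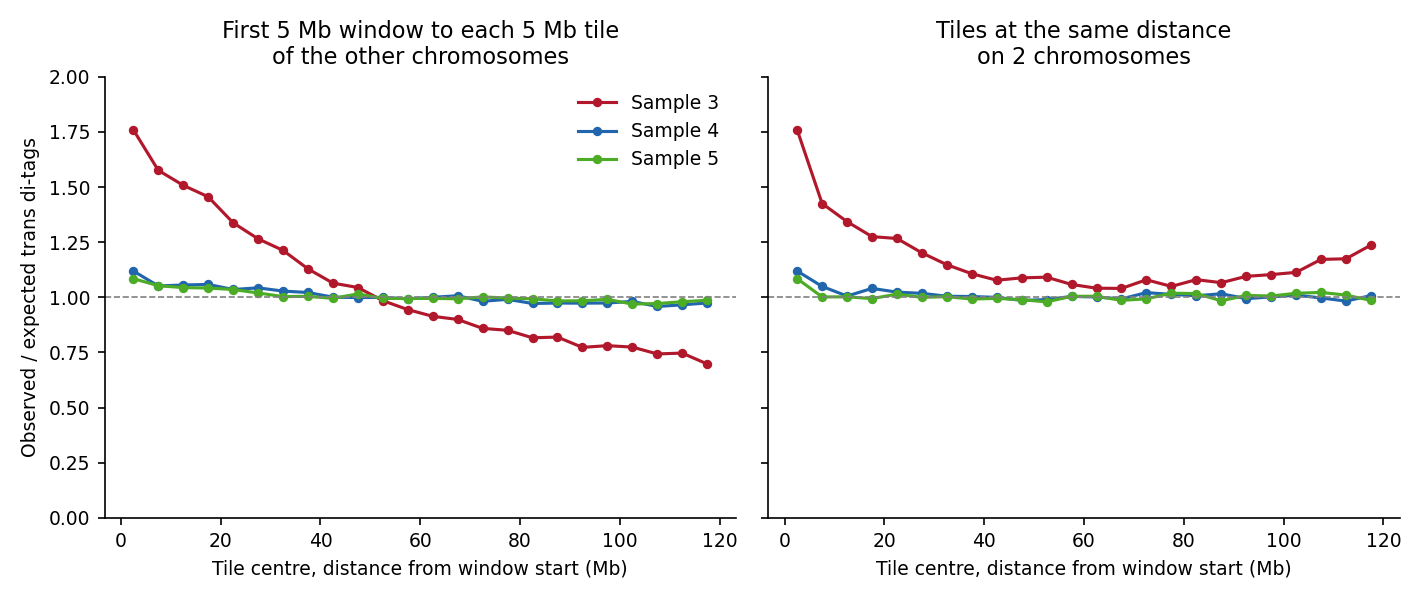
Ratio of observed to expected trans di-tags (vertical axis) by the distance of a 5 Mb tile from the start of the centromere-proximal window in Mb (horizontal axis), with 1 line per library. On the left, di-tags join the first window of one chromosome to each tile of the others. On the right, they join tiles at the same distance on 2 chromosomes. Sample 3 falls from 1.76 to 0.698 on the left, and Samples 4 and 5 stay close to 1 past the first tile.

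Tiles at equal distance on 2 chromosomes did not all behave like the windows. In Sample 3 their O/E was 1.76 for the windows, 1.43 for the next tiles and between 1.04 and 1.43 over all later tiles, with a rise at the far end to 1.24 at 115 to 120 Mb. In Samples 4 and 5 the later tiles lay between 0.979 and 1.05. The last 5 Mb of the chromosomes, next to the telomere far from the centromere, showed the same order of libraries. Joined to each other, these distal ends had an O/E of 1.49 in Sample 3, 1.03 in Sample 4 and 1.03 in Sample 5. Joined to the centromere-proximal windows of other chromosomes, they had 0.672, 0.961 and 0.977. In Sample 3, therefore, like ends of different chromosomes were found together more than their coverage gave and unlike ends less. In Samples 4 and 5 the distal ends departed from 1 by under 5% in both comparisons, and by less than the centromere-proximal windows among themselves. The tiles at the same distance, the distal ends and the windows of a library share its totals, so these values are a description and not separate tests.

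Within the windows, the first Mb held the highest ratio. Di-tags with both ends in the first Mb had an O/E of 2.57 in Sample 3, 1.52 in Sample 4 and 1.41 in Sample 5. Di-tags with both ends in the fifth Mb had 1.33, 0.921 and 0.897. The difference between these ratios was 0.95, 0.72 and 0.66 on the log2 scale, a mean of 0.78 ± 0.15 (SD, n = 3), and 0.69 without Sample 3. The direction was the same in 3 of 3 libraries. It was smaller without the very start of the windows: without the first 100 kb of every chromosome the first-Mb ratio was 2.07, 1.24 and 1.23 and the mean log2 difference was 0.50.

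**Figure D2:**
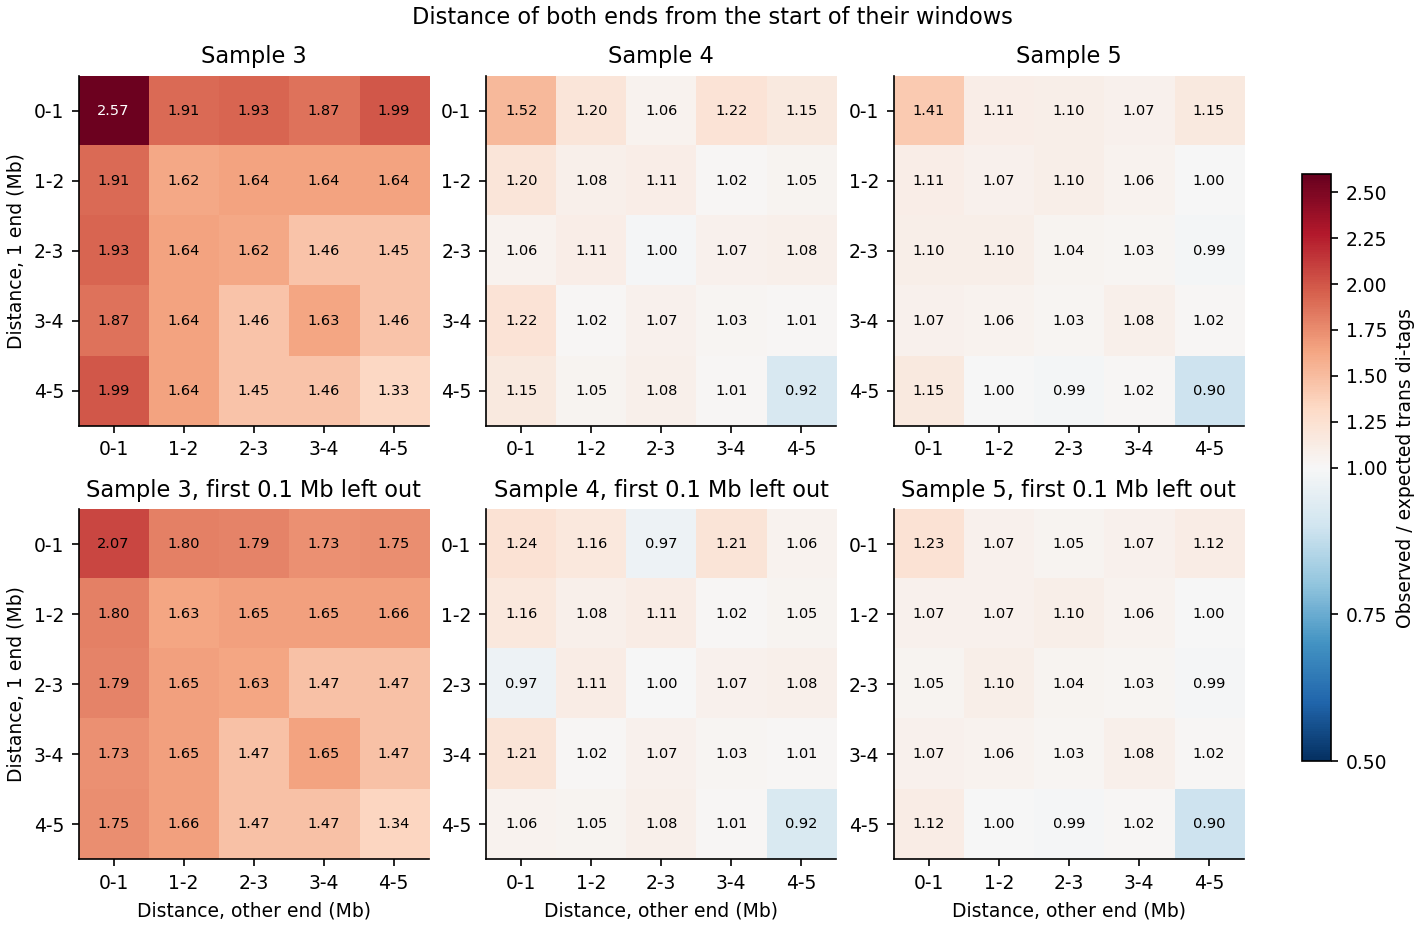
Ratio of observed to expected trans di-tags, printed in each square, by the distance of one end (vertical axis, Mb from the window start) and of the other end on another chromosome (horizontal axis, Mb), for 3 libraries in columns. The upper row uses all bins and the lower row leaves out the first 0.1 Mb of every chromosome. The corner where both ends lie in the first Mb is the highest square in all 6 panels, from 1.23 to 2.57.

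The bins of 10 kb with the most window-to-window di-tags lay within the first 100 kb of the chromosome 11 window. The 5 leading bins were chr11:3050000-3059999, chr11:3030000-3039999, chr11:3090000-3099999, chr11:3060000-3069999 and chr11:3070000-3079999. The first of them held 442 window-to-window di-tags in Sample 3, 308 in Sample 4 and 288 in Sample 5, an O/E of 2.92, 1.59 and 1.40. The second held 472, 223 and 195, an O/E of 2.81, 1.48 and 1.32. Their high numbers thus came partly from high coverage, at between 4058 and 5820 trans ends per library, and partly from a ratio above that of the windows as a whole. The first 100 kb of chromosome 11 took part in 17.0%, 14.4% and 12.9% of the window-to-window di-tags of Samples 3, 4 and 5. It gave 8.51%, 7.20% and 6.44% of the ends of those di-tags, against 5.98%, 5.87% and 5.65% of all trans ends of the windows.

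Bin chr17:3070000-3079999 behaved differently, with far fewer ends than the 5 leading bins and a very high ratio. It was singled out after its values were seen. It held 185, 178 and 186 trans ends in Samples 3, 4 and 5, of which 76, 57 and 56 were joined to a centromere-proximal window of another chromosome, an O/E of 10.2, 8.37 and 7.96. The 3 pairs of bins with the most di-tags all joined it to the first 100 kb of chromosome 11, which held most of its window-to-window di-tags. Joined to chr11:3030000-3039999 it gave 28, 16 and 20 di-tags, joined to chr11:3020000-3029999 it gave 15, 21 and 20, and joined to chr11:3050000-3059999 it gave 10, 5 and 2. Sample 3 was highest for the first and the third of these pairs and lowest for the second. Window-to-window di-tags were otherwise spread thinly: 98.9% to 99.3% of joined bin pairs were seen exactly 1 time in a library. The sequence of these bins was not examined, because no genome of their build was used here, and similarity between them was not tested.

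Without the first 100 kb of every chromosome, the summed O/E of the windows was 1.66 in Sample 3, 1.08 in Sample 4 and 1.06 in Sample 5. Without chromosome 11 altogether it was 1.57, 1.07 and 1.06. With the first 100 kb left out and both ends held to the first 61 Mb, it was 1.18, 1.03 and 1.02. The direction was therefore the same under these settings, and the excess was smaller in each library.

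Every one of the 19 windows had an O/E above 1 towards the windows of the other autosomes in every library. No counting interval was formed for single windows, and each di-tag counts for both of its windows, so the 19 values are not separate tests. The lowest and highest ratios in Sample 3 were 1.47 for chromosome 19 and 2.28 for chromosome 11, with a median of 1.67. Those in Sample 4 were 1.04 for chromosome 1 (705 di-tags against 676 expected) and 1.26 for chromosome 11. Those in Sample 5 were 1.01 for chromosome 2 (1012 di-tags against 1005 expected) and 1.18 for chromosome 11. The lowest windows of Samples 4 and 5 thus lay close to their expectation. Chromosome 11 was thus the highest in all 3 libraries and was followed by chromosome 17 in each (2.08, 1.22 and 1.13). Without its first 100 kb, chromosome 11 had 2.01, 1.11 and 1.08, still the highest in Sample 3 but no longer in Samples 4 and 5. Under that setting 18 of 19 windows were above 1 in each of Samples 4 and 5, the exceptions being chromosome 13 in Sample 4 (0.986) and chromosome 2 in Sample 5 (0.985). With both ends at 3 to 61 Mb, 19, 16 and 17 windows were above 1 in Samples 3, 4 and 5.

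**Figure D3:**
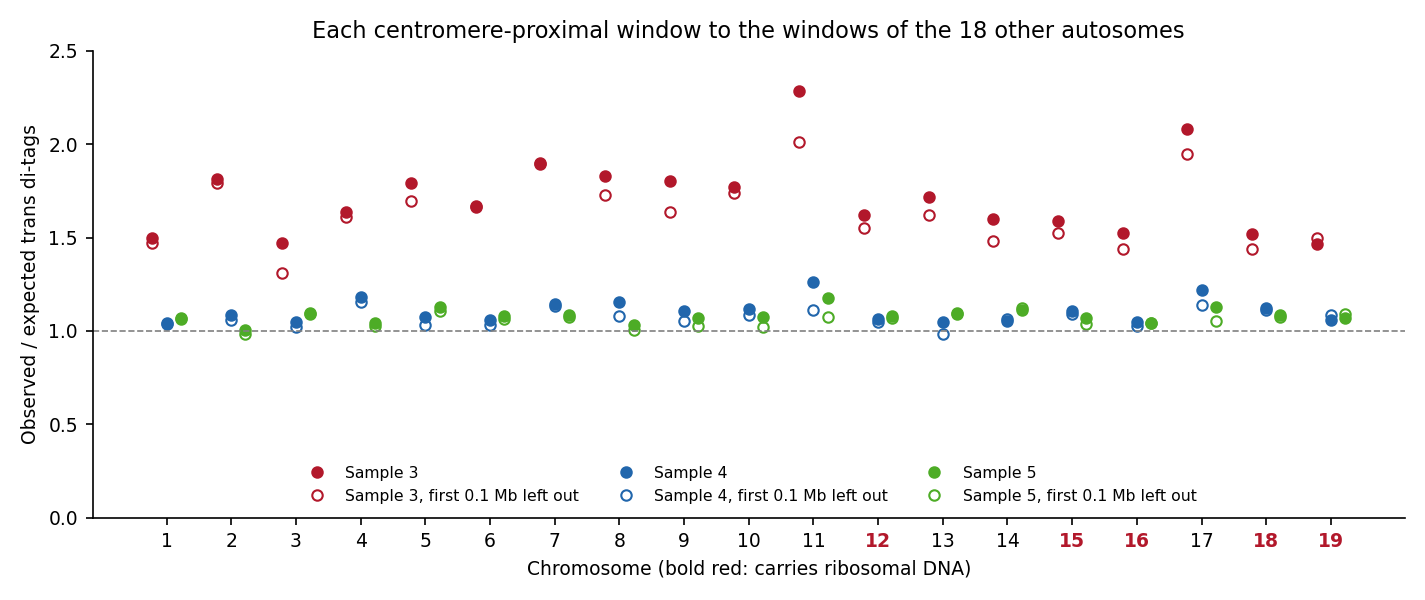
Ratio of observed to expected trans di-tags of each centromere-proximal window with the windows of all other autosomes (vertical axis), by chromosome (horizontal axis), for 3 libraries. Filled points use all bins and open points leave out the first 0.1 Mb. All filled points lie above 1, at 1.47 to 2.28 in Sample 3 and 1.01 to 1.26 in the other libraries.

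The window's ratio had no marked relation to chromosome length. Across the 19 chromosomes Pearson's r between O/E and the last position with a di-tag was 0.03 in Sample 3, -0.14 in Sample 4 and -0.20 in Sample 5, given as a description because the chromosomes share their di-tags pairwise. With the number of captured bins in the window, r was 0.24, 0.24 and 0.07. The windows differed far more in coverage than in ratio. That of chromosome 19 held 100467 ends in Sample 3 and 163 captured bins, whereas that of chromosome 14 held 943 ends, none captured, in 170 covered bins. The latter window had only 42, 40 and 43 di-tags to the other windows, an O/E of 1.60, 1.05 and 1.11.

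By chromosome pair, 153 of the 171 pairs of windows reached an expected count of 10 in every library and were tested, and the 18 others all contained chromosome 14. The tests were fitted over all 110059 pairs of 5 Mb tiles on different autosomes that reached this count. Fitted over 3 libraries with limma, 0 of 153 pairs differed from the expectation at an adjusted p under 0.05, and 62 did at an unadjusted p under 0.05. Over all tile pairs, 0.000909% were called and 9002 of 110059 had an unadjusted p under 0.05, that is 8.18%, against 40.5% of the tested window pairs. The median log2 ratio was 0.27 over the window pairs and -0.02 over all tile pairs. No single pair of windows was thus called over all 3 libraries in this fit.

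Without Sample 3 the same fit called 4 window pairs, without Sample 4 it called 10 and without Sample 5 it called 13, all higher. Of all tile pairs these fits called 0.276%, 0.172% and 0.210%, and 0.0169%, 0.0418% and 0.0482% as higher. An exact two-sided Poisson test within a single library compares that library's count with its expectation and says nothing of the spread between libraries. It called 79 of 153 window pairs in Sample 3 (background 4.40%, of which 2.49% higher), 3 in Sample 4 (background 0.00363%) and 1 in Sample 5 (background 0.00273%), every one of them higher. In Sample 3, 152 of 153 pairs had an O/E above 1, in Sample 4 there were 92 and in Sample 5 there were 101. Over all tile pairs, 47.2%, 49.0% and 49.0% were above 1. All 3 libraries were above 1 for 67 pairs, or 43.8%, against 13.6% of all tile pairs. Sample 3 was above both other libraries in 139 of the 153 pairs.

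**Figure D4:**
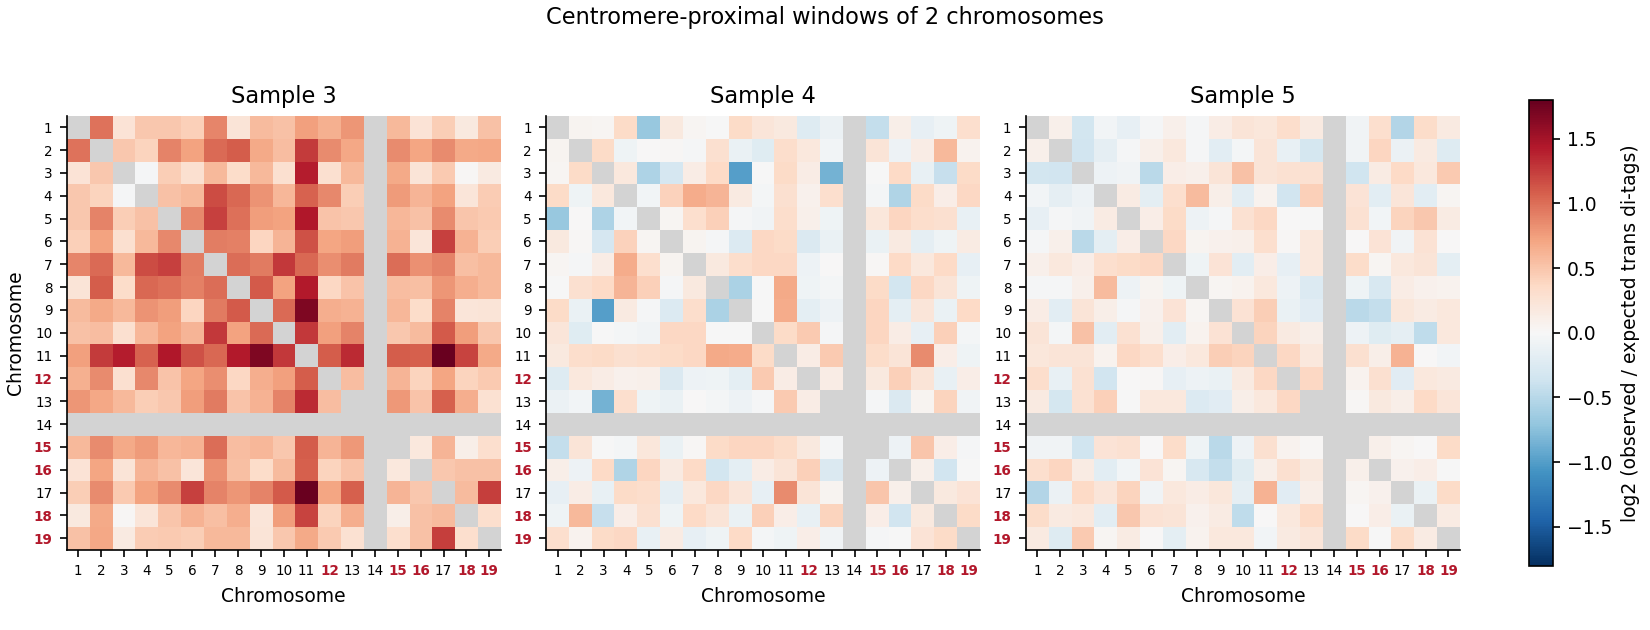
log2 of observed over expected trans di-tags between the centromere-proximal windows of 2 chromosomes (both axes, chromosome number), with 1 panel per library. Grey squares are pairs with chromosome 14, not tested for low counts, and the diagonal, and red numbers mark the chromosomes taken to carry rDNA. Sample 3 is red in nearly every square (152 of 153 above 1), with the row of chromosome 11 the darkest, and Samples 4 and 5 hold both colours.

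The pair with the lowest adjusted p was that of chromosomes 11 and 17, named with 2 others that contain chromosome 11 after their values were seen. It held 343 di-tags against 100.3 expected in Sample 3, 181 against 100.0 in Sample 4 and 165 against 107 in Sample 5. Its O/E of 3.42, 1.81 and 1.55 was the highest of the 153 tested window pairs in every library, its mean log2 ratio was 1.08 with a standard error of 0.35, and its adjusted p from limma was 0.0537 over 3 libraries. It was called over 3 libraries with observed chromosome pair totals (limma adjusted p = 0.0362) and with coverage from all ends (0.0324). It was also called with a pseudocount of 5 (limma adjusted p = 0.00638) and at 3 to 61 Mb (0.00112). The fit at 3 to 61 Mb, a limit chosen after seeing the data, covered 23462 tile pairs. It gave a mean log2 ratio of 0.76 for this pair. Its mean log2 ratio was 0.65 without the first 100 kb of the chromosomes (limma adjusted p = 0.431). It was 0.62 without the 1% most covered bins (limma adjusted p = 0.649). With each pair of bins counted at most 1 time it was 0.72 (limma adjusted p = 0.359). The pair was also not called within capture classes (limma adjusted p = 0.211) or in the lists with duplicates (0.167). Nor was it called with no minimum expected count (limma adjusted p = 0.0815). This pair was also the only tile pair, among the 110059, that the Poisson test called in every library (0.000909% of them). It contains the bins on chromosomes 11 and 17 described above. The pair of chromosomes 9 and 11 had an O/E of 3.19, 1.60 and 1.36 with a limma adjusted p of 0.213, and the pair of chromosomes 8 and 11 had 2.69, 1.61 and 1.14 with a limma adjusted p of 0.267. Without the first 100 kb their mean log2 ratios went from 0.93 to 0.57 and from 0.77 to 0.31, with limma adjusted p-values of 0.404 and 0.653. Over 3 libraries both were called with coverage from all ends (limma adjusted p = 0.0345 and 0.0396). The pair of 9 and 11 was also called at 3 to 61 Mb (limma adjusted p = 0.00951). The fits without 1 library in turn, which rest on 2 libraries, called each of these pairs with chromosome 11. The pair of chromosomes 4 and 8, also named after its values were seen, had an O/E of 2.05, 1.53 and 1.49. Its limma adjusted p over 3 libraries was 0.267, the same as for 8 and 11.

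At the finer scale of 1 Mb, 90 of the 95 steps in the windows were tested among 2395 steps of all autosomes, each for its trans di-tags to the windows of the other chromosomes. limma called 0 of 90 steps over 3 libraries (background 0.00%), and 47 had an unadjusted p under 0.05 against 228 of all 2395. The Poisson test called all 90 in Sample 3, each higher, where it also called 52.6% of all steps and 23.5% as higher. It called 3 in Sample 4 (background 0.167%, and 0.125% higher) and 3 in Sample 5 (background 0.125%). Over pairs of libraries limma called 2 steps in Samples 4 and 5 (background 0.0833%), 0 in Samples 3 and 5 and 1 in Samples 3 and 4 (background 0.0835%). The first Mb of chromosome 11 and the first Mb of chromosome 17 were called in every library, and were the only steps of the 2395 to be so (0.0835%). Their O/E was 2.55, 1.40 and 1.28 on chromosome 11, and 2.54, 1.56 and 1.36 on chromosome 17. The step on chromosome 17 held 395, 277 and 262 di-tags against 156, 177 and 193 expected in Samples 3, 4 and 5. Its single bin chr17:3070000-3079999 gave 76, 57 and 56 of these, a large part of the excess in Samples 4 and 5. The first Mb of chromosome 4 was called in Samples 3 and 4 (1.89, 1.39 and 1.14) and that of chromosome 7 in Samples 3 and 5 (2.05, 1.23 and 1.33). Every window step that the Poisson test called in Sample 4 or 5 was therefore the first Mb of its chromosome. The median O/E of the 90 steps was 1.65 in Sample 3, 1.10 in Sample 4 and 1.07 in Sample 5, against 0.914, 0.995 and 0.999 for the 2305 steps outside the windows.

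Pooled over pairs in Sample 3, windows of rDNA chromosomes were joined to each other less, relative to coverage, than those of other chromosomes. The pooled difference was smaller in Sample 4 and absent in Sample 5. In Sample 3 the 91 pairs with no rDNA chromosome had an O/E of 2.01 (exact Poisson 95% interval 1.96 to 2.06), the 70 pairs with 1 such chromosome had 1.60 (1.56 to 1.64) and the 10 pairs with 2 had 1.32 (1.23 to 1.41). In Sample 4 the same classes had 1.16, 1.08 and 1.06. The interval of the last, from 0.980 to 1.15, overlapped that of the first, from 1.13 to 1.20. In Sample 5 the classes had 1.11, 1.06 and 1.11, with 1.03 to 1.20 for the last. Over single tested pairs of Sample 4, the median O/E was 1.03 with no rDNA chromosome and 1.04 with 2, so the pooled difference was not seen in the typical pair. The pooled classes were thus well apart in Sample 3 and within 0.11 of each other in Samples 4 and 5. The 10 rDNA pairs rest on 829, 639 and 687 di-tags.

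On the log2 scale, rDNA pairs minus pairs with no rDNA chromosome came to -0.61 in Sample 3, -0.14 in Sample 4 and 0.00 in Sample 5, a mean of -0.25 ± 0.32 (SD, n = 3). The difference was smaller than the spread between libraries, and without Sample 3 the mean was -0.07. Pairs with 1 rDNA chromosome minus pairs with none gave -0.33, -0.11 and -0.07, a mean of -0.17 ± 0.14, and -0.09 without Sample 3. Both means moved towards 0 without the start of the chromosomes, although the first difference moved away from 0 in Sample 5. That start holds the leading bins of chromosome 11, which was taken as a non-carrier. The cause of the move was not tested. Without the first 100 kb of every chromosome the first difference was -0.49, -0.03 and 0.07, and the second was -0.26, 0.02 and 0.00. Without chromosome 11 the first was -0.40, 0.00 and 0.08, and with windows of 3 to 13 Mb it was -0.33, -0.02 and -0.04. With windows of 3 to 5.5 Mb it was -0.71, -0.32 and -0.16, and with coverage from all ends -0.86, -0.29 and -0.13. The difference in Sample 3 was negative under each of these settings, and in Samples 4 and 5 its size and, in some settings, its sign moved with them.

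**Figure D5:**
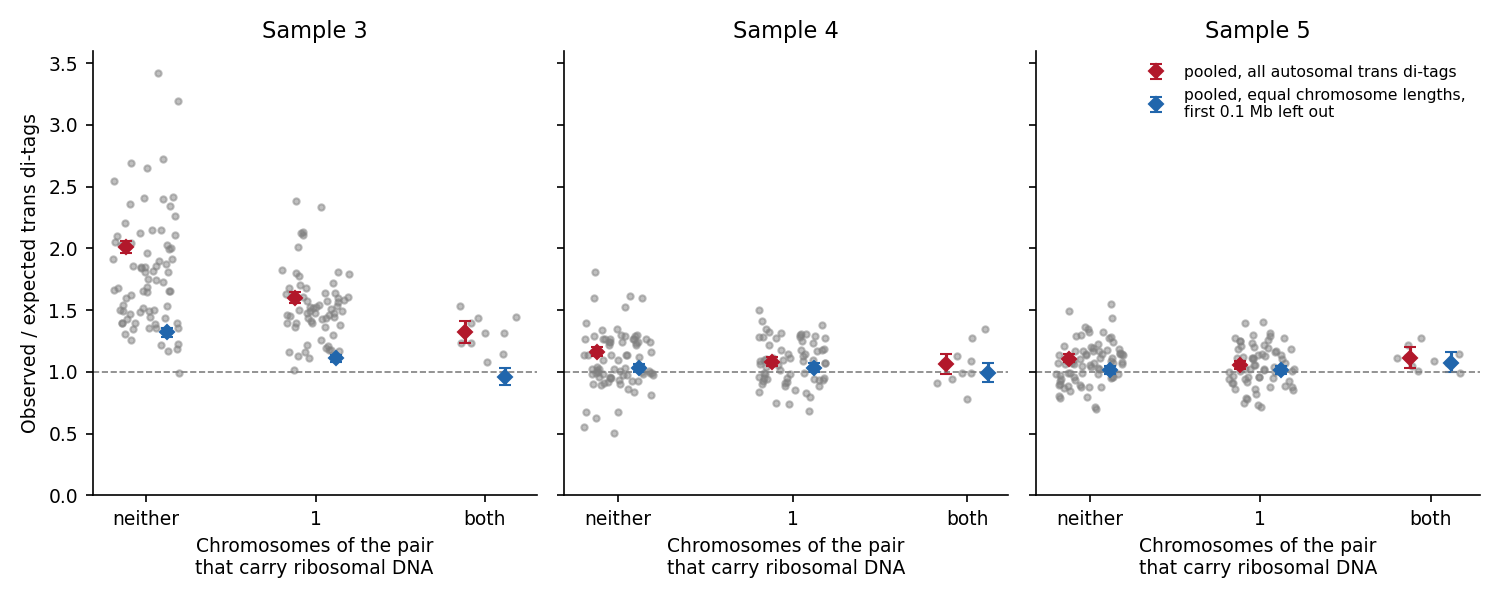
Ratio of observed to expected trans di-tags between centromere-proximal windows (vertical axis) for pairs in which neither, 1 or both chromosomes are taken to carry rDNA (horizontal axis), with 1 panel per library. Grey points are the tested chromosome pairs, spread sideways for legibility, and diamonds are pooled ratios with exact Poisson 95% intervals, in red for all bins and in blue with both ends at 3.1 to 61 Mb. Sample 3 falls from 2.01 through 1.60 to 1.32 in red, and Samples 4 and 5 lie between 1.06 and 1.16.

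The rDNA chromosomes are among the shorter autosomes, so that length and rDNA move together, and the comparison was repeated in settings that change the length. With both ends held to 3 to 61 Mb of their chromosomes, about the length of chromosome 19, the far parts of the chromosomes no longer entered the expectation, and the summed ratios came closer to 1. They were 1.24 in Sample 3, 1.06 in Sample 4 and 1.04 in Sample 5. The classes with none, 1 and 2 rDNA chromosomes had 1.40, 1.13 and 0.955 in Sample 3, and the last had an interval from 0.891 to 1.02. The log2 difference between the last and the first of these classes was -0.55, -0.13 and 0.02 in Samples 3, 4 and 5, and with the first 100 kb left out as well it was -0.46, -0.05 and 0.08. The part of chromosome length in the difference was not tested beyond these settings. Among chromosomes 11 to 19 alone, which are more alike in length but in which chromosome 11 weighs more, the difference was -1.14, -0.53 and -0.23. The class with no rDNA chromosome then had only 6 pairs, with 600, 355 and 322 di-tags in Samples 3, 4 and 5. The single pair of chromosomes 11 and 17 gave 343, 181 and 165 of these, so this difference rests largely on 1 pair. Leaving out the first 100 kb as well brought the differences to -0.85, -0.12 and 0.05.

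Counted by single window, the same di-tags gave a lower median for rDNA chromosomes in Sample 3. The windows of the 5 rDNA chromosomes had there an O/E between 1.47 and 1.62 (median 1.52) towards all other windows, and those of the 14 others between 1.47 and 2.28 (median 1.78), so the ranges overlapped, with 3 of the 14 inside the range of the rDNA windows. In Sample 4 the medians were 1.07 and 1.10, with 8 of 14 inside. In Sample 5 they were 1.07 and 1.08, with 6 of 14 inside.

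The 10 pairs among rDNA chromosomes were all above 1 in Sample 3, in a range from 1.08 to 1.53. Of these, 2 (20.0%) were called by the Poisson test in that library, against 51.6% of all tested window pairs, 61.5% of those with no rDNA chromosome and 4.40% of all tile pairs. The pair of chromosomes 16 and 19 held 164 di-tags against 114 expected (O/E 1.44, Poisson adjusted p = 0.00121), and the pair of chromosomes 12 and 19 held 124 against 89.1 (O/E 1.39, Poisson adjusted p = 0.0193). The former pair had an O/E of 0.991 in Sample 4 and 0.994 in Sample 5, and the latter 1.08 and 1.12. The highest ratio in Sample 3 was that of chromosomes 12 and 15, with 51 di-tags and 1.53, against 1.13 and 1.05 in the others. The pair of chromosomes 12 and 16 was above 1 in all 3 libraries, with 58, 57 and 54 di-tags and an O/E of 1.32, 1.35 and 1.22.

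Of the 6 other rDNA pairs, that of chromosomes 18 and 19 was also above 1 in all 3 libraries, with an O/E of 1.23, 1.27 and 1.11, and that of 15 and 19 had 1.24, 0.990 and 1.27. The pairs of 12 with 18 (1.32, 0.912 and 1.14), of 15 with 16 (1.15, 0.938 and 1.07), of 15 with 18 (1.08, 1.09 and 1.01) and of 16 with 18 (1.45, 0.784 and 1.09) were above 1 in Sample 3, and 3 of these 4 were below 1 in Sample 4. Over Samples 4 and 5 the 10 pairs lay between 0.784 and 1.35. None was called in those libraries or by limma over the 3, in which the lowest adjusted p was 0.505, for chromosomes 12 and 16.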

How the data were processed

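The lists deposited by the authors hold 1 line per di-tag with the position of both reads, and the only measure is the number of lines. With HiCUP, the authors cut reads at the junction, mapped both ends separately, and took out artefacts and duplicate di-tags. The submitters' processing notes name Bowtie 1.1.0 and mm9. The windows and comparisons were chosen with earlier results of these data known. Trans di-tags between chromosomes 1 and 19 were binned at 10 kb (Python 3.11.15, numpy 2.4.6), and X, Y and mitochondrial ends were left out. The expected count was the total of a chromosome pair, fitted from the trans ends of each autosome, times each window's share of its chromosome's trans ends. Ratios were tested as log2 of observed over expected, each plus 0.5, against 0 with limma 3.58.1, where the expected count reached 10 in every library, with Benjamini-Hochberg adjustment at 0.05 over all tile pairs or steps. Exact two-sided Poisson tests per library were adjusted in the same way. Scripts were tested on simulated data. Groups came from the cell type label. Named were the 10 rDNA pairs, called pairs, extreme windows, and the 5 bins and 3 bin pairs with the most di-tags. CHiCAGO was not run, gene and promoter tables at hand were of GRCm38 and were not used, and so no gene or sequence is printed. Alternatives were other expectations, windows, bin and length limits, filters, a pseudocount of 5, the lists with duplicates and leaving out each library.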

Additional observations from a re-analysis of the deposited data

How the results depend on the processing

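The mean of the summed O/E over libraries lay between 1.08 and 1.55 under all alternatives, the lower value with both ends at 3.1 to 61 Mb, a limit chosen after seeing the data, as were that of 3 to 61 Mb, the window of 4 to 8 Mb, leaving out chromosome 11 and, for single pairs, steps and the difference within the windows, leaving out the first 100 kb. Without each library in turn it was 1.10 to 1.44. The mean log2 difference between the first and the fifth Mb was 0.49 without the 1% most covered bins and 0.50 without the first 100 kb. Among chromosomes 11 to 19 the mean rDNA difference was -0.63, and that of pairs with 1 rDNA chromosome -0.46. The rDNA difference also moved by over 1.5 times to -0.43 with coverage from all ends, -0.39 with windows of 3 to 5.5 Mb, -0.16 with 3.5 to 8 Mb, -0.15 with 4 to 8 Mb, -0.13 with 3 to 13 Mb, -0.16 without the 1% most covered bins, -0.15 without the first 100 kb, -0.15 at 3.1 to 61 Mb, -0.55 at 3 to 61 Mb of chromosomes 11 to 19, -0.11 without chromosome 11 and -0.11 as the median over pairs. The difference for pairs with 1 rDNA chromosome otherwise lay between -0.28 with coverage from all ends and -0.06 as the median over pairs. Without each library in turn the rDNA difference was -0.37 to -0.07, the value nearest 0 without Sample 3.

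Called window pairs numbered 0 with limma, 11 with coverage from all ends (of 145 tested, and 0.344% of all tile pairs), 1 with observed chromosome pair totals, 1 with a pseudocount of 5 (0.00182% of all tile pairs in both), 2 at 3 to 61 Mb (0.0128% of all tile pairs), and 4 to 13 without each library in turn. The Poisson test called 79, 3 and 1 in Samples 3, 4 and 5, and 1 in every library. Called 1 Mb steps numbered 0 with limma, 2 at 3 to 61 Mb (of 92 tested, and 0.185% of all steps), 0 to 2 without each library in turn, and 90, 3 and 3 by the Poisson test, with 2 in every library. The mean log2 ratio of some rDNA pairs turned below 0. At 3 to 61 Mb it was -0.0051 for chromosomes 12 and 18, -0.098 for 15 and 16, -0.059 for 15 and 18, -0.055 for 16 and 18, and -0.058 for 16 and 19. In the lists with duplicates it was -0.023 for 15 and 16 and -0.38 for 15 and 18. Without each library in turn it was -0.11 to 0.32 for 16 and 18 and -0.011 to 0.26 for 16 and 19, the lower value without Sample 3. The cause was not tested.

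No paired analysis was possible because the 3 libraries form 1 group. Their number limits the precision of the summed O/E, whose SD was 0.380 over all 3 libraries and 0.0245 without Sample 3. Single window pairs rest on expected counts of 12.6 to 270 in Sample 3. Pairs with the window of chromosome 14, which had few covered bins, were too low in count to be tested.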
